A study of Mus musculus with 12 samples.

Results

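The comparison described here is dexamethasone against vehicle in livers of male (XY) mice, and it uses 6 of the 12 arrays of the series. Its members are the arrays labelled male vehicle 1 to 3 and male dexamethasone 1 to 3, chosen by the sex and treatment in their labels alone. All mice were adrenalectomized C57BL/6 animals aged 11 weeks. The vehicle group received phosphate buffered saline (PBS), the treated group dexamethasone at 1 mg/kg by intraperitoneal injection, and both livers were taken 6 h later. The other 6 arrays hold adrenalectomized females in diestrus, 3 after vehicle and 3 after dexamethasone. They enter here through a shared estimate of spread and 1 test of the difference between the sexes. They also had a part in which genes were tested and which probe stood for a gene. Because both male groups lack adrenals, the vehicle livers had no adrenal glucocorticoid of their own, so the contrast is between hormone absence and an acute synthetic agonist. The labels do not state whether each array is a separate animal, so the p-values measure only the spread between these samples.

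Glucocorticoids act through the glucocorticoid receptor, a ligand-activated transcription factor that moves to the nucleus and either activates genes carrying its response element or lowers the output of other factors such as NF-kappa B. In the liver the hormone is known for driving amino acid breakdown and glucose output and for dampening inflammatory genes. Dexamethasone is a synthetic agonist that binds this receptor with high affinity.

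The arrays were 1-colour Agilent whole-genome arrays, on which a probe's brightness stands for the amount of its transcript. Values are given as scaled intensity, the processed signal of a gene's brightest probe brought to a common upper quartile of 846 units, and a change is dexamethasone minus vehicle on the log2 scale ± its standard error. A gene was called when the limma test gave a Benjamini-Hochberg adjusted p under 0.05 over 19337 genes. Levels of different probes are not comparable, so each gene is compared only with itself across arrays. The upper quartile of the processed signal was 821, 836 and 883 on the vehicle arrays and 788, 578 and 672 on the dexamethasone arrays, and 65.7% to 71.0% of spots were well above background. Every male vehicle array lay at the first position of its slide and every male dexamethasone array at another, so slide position and treatment cannot be told apart.

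The labels held for sex, and for drug by the targets Fkbp5 and Tat. Tsc22d3, Per1 and Zbtb16 were also listed as checks of the drug label, and their values are not given here. The Y-linked genes Ddx3y (1450 to 2193) and Eif2s3y (4303 to 5138) were above background on all 6 arrays, and Xist (1.75 to 2.91) was above background on none. Fkbp5, a co-chaperone of the receptor and a standard target, read 204, 311 and 656 on vehicle arrays 1 to 3 and 7486, 7212 and 7990 on dexamethasone arrays 1 to 3. Its groups were far apart, a change of 4.45 ± 0.43 (adjusted p = 0.000184). Tat, the tyrosine aminotransferase that is a classic hepatic target, read 71420, 127300 and 91460 against 294300, 426000 and 353300 (1.91 ± 0.26, adjusted p = 0.000884). The receptor gene itself, Nr3c1, read 5037, 4379 and 5047 against 4975, 4400 and 3006, which overlap (-0.25, adjusted p = 0.433). Hsd11b1, whose enzyme regenerates active glucocorticoid in the liver, changed by 0.02 (adjusted p = 0.939).

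Of the 19337 genes tested, 4359 were called (22.5%), 2021 higher (10.5%) and 2338 lower (12.1%) after dexamethasone. The typical called change was modest, with a median of 0.81 among the genes called higher and -0.99 among those called lower. Falls were more frequent at 2-fold or more (1141 against 745 rises), the numbers were close at 4-fold (197 against 188), and rises prevailed beyond that, with 72 against 29 at 8-fold and 35 against 6 at 16-fold. These counts use fitted changes, also for genes at background on every array of 1 group, where only a lower bound was measured. Pcsk1 among the rises (45.4-fold fitted, at least 9.52-fold) and Ranbp3l among the falls (12.1-fold fitted, at least 3.81-fold) are examples. The 2 groups of 3 arrays did not overlap for 8414 genes (43.5%), of which 4265 (22.1%) were higher and 4149 (21.5%) lower. Among the called genes 4318 did not overlap and 41 did. Of the 1652 called genes with several probes above background, 187 had probes that changed in both directions. With slide as a block 3185 genes were called.

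**Figure D1:**
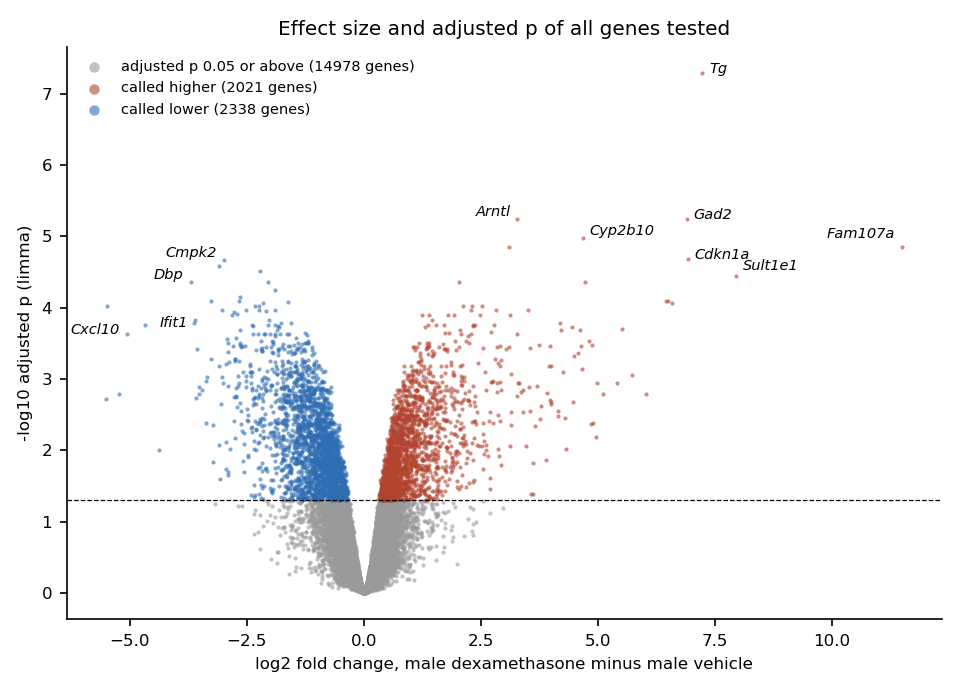
Log2 change in males (dexamethasone minus vehicle) of each of the 19337 genes tested on the horizontal axis against minus log10 of its adjusted p on the vertical axis, with called genes coloured by direction. The fitted changes of the 2021 rises reach further from 0 than those of the 2338 falls, and some in both directions rest on readings at background.

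Treatment was the main axis among the male arrays. The first principal component held 62.4% of the variance and placed the vehicle arrays at -64.54, -43.98 and -42.00 and the dexamethasone arrays at 48.93, 53.80 and 47.78. Correlations of log2 values lay between 0.986 and 0.994 within a group and between 0.965 and 0.980 across groups. A gene's median SD was 0.174 among vehicle and 0.220 among dexamethasone arrays. Single arrays weighed on the number of calls: 2157 of the 4359 (49.5%) stayed called when any 1 of the 6 male arrays was left out, and without male vehicle 1 the total fell to 2336. Genes named below held without each of these 6 arrays unless an exception is stated. That statement does not cover slide. Of the genes chosen by the naming rules, 34 lost the call with slide as a block, and slide 2 held no male dexamethasone array.

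The 15 largest rises were taken from called genes measured on all 6 arrays whose groups did not overlap. Among them, Sult1e1 and Cdkn1a led. Sult1e1, the estrogen sulfotransferase, read 11.35, 42.6 and 50.9 on vehicle and 8399, 9175 and 4886 on dexamethasone (7.96 ± 0.54). Cdkn1a, which encodes the cyclin-dependent kinase inhibitor p21, read 123, 105 and 47.0 against 10110, 10660 and 9955 (6.92 ± 0.43, adjusted p = 2.06e-05). Its dexamethasone arrays lay within a narrow band while the vehicle arrays spread more widely. Gadd45b, a stress-inducible growth arrest gene, read 369, 379 and 285 against 16760, 30570 and 11700 (5.73 ± 0.77, adjusted p = 0.000883). Its relative Gadd45g, whose probe lies at chr13:50882456-50882515 in the mm7 build, read 3851, 8638 and 11400 against 154700, 238100 and 225400 (4.81 ± 0.51, adjusted p = 0.000296). Both relatives had their lowest dexamethasone value far above their highest vehicle value. Ddit4 (chr10:59467933-59467992, mm7), an inhibitor of mTORC1 signalling, read 4174, 5302 and 4038 against 113800, 268500 and 90130 (4.97 ± 0.70, adjusted p = 0.00113).

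Among secreted proteins, Wfdc12, a whey acidic protein family protease inhibitor, read 18.0, 38.9 and 36.6 against 4145, 2423 and 697 (6.02 ± 0.92, adjusted p = 0.00162). Fibin read 180, 154 and 275 against 9158, 19290 and 1279 (4.95 ± 1.01, adjusted p = 0.00646). Dexamethasone 3 was the lowest treated array for both genes, although still above every vehicle array. Defb1, an antimicrobial defensin, read 97.4, 34.3 and 33.2 against 1173, 1619 and 441 (4.29 ± 0.77, adjusted p = 0.00353). Tff3, a mucosal trefoil peptide, read 507, 498 and 448 against 7170, 12600 and 5081 (4.00 ± 0.65, adjusted p = 0.00224). Ccn2, the connective tissue growth factor, read 391, 560 and 1350 against 16700, 10090 and 10890 (4.20 ± 0.41, adjusted p = 0.000204). Groups that did not overlap were a condition for naming these genes. 

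Several enzyme genes rose as well, although genes with Cyp symbols as a group were called higher in 7 of 72 (9.72%) and lower in 7. Cyp2b10 (chr7:22691069-22691128, mm7), a phenobarbital-inducible cytochrome P450, read 595, 371 and 360 against 12120, 11200 and 9756 (4.67 ± 0.26, adjusted p = 1.06e-05). Cyp2b13 read 2094, 688 and 610 against 18580, 19710 and 14830 (4.20 ± 0.39, adjusted p = 0.000165), but its other probe gave -1.13, and with the mean of its probes the adjusted p was 0.068. Members of the Cyp2b family are close copies, so signal may be shared between their probes. Sult1d1, another sulfotransferase, read 5001, 5593 and 7476 against 57420, 53630 and 41860 (3.09 ± 0.18, adjusted p = 1.4e-05). The tight spread within groups put Sult1d1 among the genes with the smallest adjusted p.

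The clock gene Arntl, which encodes the activator BMAL1 (chr7:109229489-109229548, mm7), had a uniform vehicle level of 92.6, 91.5 and 88.7. It read 1085, 867 and 732 after dexamethasone (3.28 ± 0.16, adjusted p = 5.7e-06). Dbp (chr7:41886169-41886228, mm7), a clock output transcription factor, moved the other way, from 108400, 97130 and 89390 to 6621, 9108 and 7049 (-3.70 ± 0.26, adjusted p = 4.38e-05).

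A smaller class of genes was above background on all 3 dexamethasone arrays and on no vehicle array. It held 38 genes, 26 of them with a usable symbol. For such genes the change is given as a lower bound on the fold, taken from the lowest signal of probes above background on each vehicle array, and the vehicle readings are background. Fam107a, a stress-responsive actin-associated gene, read 1.66, 1.91 and 3.12 on vehicle and 9170, 13200 and 1976 on dexamethasone, at least 766-fold higher (adjusted p = 1.4e-05). Tg, the thyroglobulin gene known from thyroid follicles, read 4.77, 4.39 and 3.61 against 556, 780 and 578, at least 77.8-fold higher (adjusted p = 5.1e-08). The treated arrays of Tg lay close together, and its adjusted p was the smallest of the genes named. Atp6v0a4, a subunit of the vacuolar proton pump, read 129, 156 and 587 on dexamethasone (at least 28.1-fold). Gad2, a glutamate decarboxylase, read 334, 126 and 242 (at least 26.7-fold).

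The next genes of this class were dimmer. Zdhhc25, a predicted palmitoyltransferase, read 90.7, 142 and 64.2 on dexamethasone (at least 11.6-fold, adjusted p = 0.000663). Cd28, a T cell costimulatory receptor, read 67.5, 75.2 and 145 (at least 11.1-fold, adjusted p = 4.38e-05), while no T or NK cell marker listed below was called higher. Sult3a1, a sulfotransferase, read 58.2, 142 and 62.8 (at least 9.90-fold, adjusted p = 0.0021), and its adjusted p was 0.16 under a capped background correction. Pcsk1, a prohormone convertase, read 60.4, 79.9 and 94.95 (at least 9.52-fold, adjusted p = 0.000199). Slco4c1, an organic anion transporter, read 98.5, 102 and 30.8 (at least 8.35-fold, adjusted p = 0.000435). Trp63, a relative of p53, read 49.7, 79.0 and 25.5 (at least 5.51-fold, adjusted p = 0.00153). Each of these genes was above background on every treated array and on no vehicle array.

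Promoter sequence was examined for the strong responders because the receptor binds a defined element. Of the 188 genes called higher by 4-fold or more, 119 matched a RefSeq promoter window (GRCm38.p6, 250 bases before to 50 after an annotated start), and 4 of them held, upstream of the start, a 13-letter pattern: the receptor core ACANNNTGT with GN before it and NC after it. The 89 bases around each match are printed because they carry the longest match in the windows searched, with the pattern in capitals and N for any base. They lie 116 bases before an annotated start of Fam107a (chr14:8309847-8309935, minus strand), 161 bases before that of Slc10a6 (chr5:103629516-103629604, minus strand), 179 before that of Map3k6 (chr4:133240599-133240687, plus strand) and 186 before 1 of the starts of Sgk1 (chr10:21993664-21993752, plus strand).
Fam107a: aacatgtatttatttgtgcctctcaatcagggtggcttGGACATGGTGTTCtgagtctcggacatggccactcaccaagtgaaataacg
Slc10a6: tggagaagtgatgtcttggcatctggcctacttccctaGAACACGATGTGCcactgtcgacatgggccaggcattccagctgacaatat
Map3k6: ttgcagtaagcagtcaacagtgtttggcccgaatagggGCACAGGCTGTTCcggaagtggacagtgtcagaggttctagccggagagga
Sgk1: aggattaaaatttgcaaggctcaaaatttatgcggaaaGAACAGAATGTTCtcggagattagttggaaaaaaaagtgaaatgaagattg

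The 4 genes differed in how firmly they were measured. Fam107a was described above. Slc10a6, a sodium-dependent transporter of sulfated steroids, read 3.42, 9.04 and 11.4 on vehicle, where 1 of 3 arrays was above background, and 140, 119 and 345 on dexamethasone (4.67 ± 0.60, adjusted p = 0.000724). Map3k6, a stress-activated kinase, read 567, 755 and 804 against 4394, 5325 and 5568 (2.86 ± 0.35, adjusted p = 0.000594). Sgk1, the serum and glucocorticoid regulated kinase, read 1655, 1609 and 2314 against 14790, 11500 and 3905 (2.25 ± 0.64, adjusted p = 0.0283). Its lowest treated value was on dexamethasone 3, and the call was lost without any 1 of the other 5 male arrays (adjusted p 0.0521 to 0.0926) and was 0.0136 without dexamethasone 3.

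Across all 12202 tested genes with a 300-base window, 5.84% held the shorter core ACANNNTGT, against 6.23% of the genes called higher and 5.80% of those called lower. Both patterns read the same on the opposite strand, and the core lies within the longer one. The longer pattern was held by 0.467% of all these genes, 0.934% of those called higher and 0.302% of those called lower. A gene counted when any of its windows held the pattern, and genes differ in their number of windows. These shares cover the whole 300-base windows with no chromosome left out. Among the 119 rises of 4-fold or more, a limit set after values were seen, 16 held the core (13.4%) and 6 the longer pattern (5.04%), against 4.69% and 0.781% of the falls of that size. A match is only a run of letters and was not tested as a binding site.

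Among called falls measured on all 6 arrays with groups that did not overlap, Cxcl10 had the largest, followed by Dbp above. Cxcl10, a chemokine for activated T cells, read 1173, 1735 and 810 on vehicle and 48.8, 28.4 and 31.7 on dexamethasone (-5.06 ± 0.51). Ccl2, a monocyte chemokine, read 406, 543 and 240 against 35.7, 23.9 and 37.8 (-3.56 ± 0.40). Calhm6 read 937, 366 and 207 against 39.3, 48.6 and 32.8 (-3.38 ± 0.47, adjusted p = 0.00107). In all 3 the vehicle arrays varied more than the dexamethasone arrays in absolute units. Ifit1 (chr19:34350610-34350669, mm7), an interferon-induced RNA sensor, read 695, 638 and 631 against 63.5, 49.9 and 49.3 (-3.60 ± 0.33, adjusted p = 0.000146). Cmpk2, an interferon-induced mitochondrial nucleotide kinase, read 408, 330 and 278 against 46.8, 43.8 and 36.0 (-3.00 ± 0.19, adjusted p = 2.17e-05).

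Smpd3, a neutral sphingomyelinase, read 734, 522 and 739 against 71.9, 82.6 and 45.5 (-3.34 ± 0.45, adjusted p = 0.000924). Tspan18, a tetraspanin, read 497, 381 and 389 against 47.5, 46.3 and 54.0 (-3.09 ± 0.20, adjusted p = 2.59e-05). Spsb4, an adaptor of a ubiquitin ligase, read 1067, 1031 and 830 against 177, 85.4 and 97.0 (-3.09 ± 0.39, adjusted p = 0.000645). Groups that did not overlap were again a condition for naming these 3 genes. Srebf1, the master activator of fatty acid synthesis genes, read 64630, 83370 and 76150 against 9305, 9459 and 8059 (-3.06 ± 0.50, adjusted p = 0.00224). Paqr7, a membrane progestin receptor, read 8977, 7712 and 7472 against 1293, 1069 and 679 (-3.04 ± 0.41, adjusted p = 0.000947). Tnfrsf19, a TNF receptor family member, read 777, 519 and 622 against 92.3, 74.8 and 67.4 (-3.02 ± 0.26, adjusted p = 0.000108).

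Rnf186, a ubiquitin ligase, was less firm, at 3681, 985 and 1115 against 86.4, 120 and 638 (-3.09 ± 0.84, adjusted p = 0.0248). Vehicle 1 and dexamethasone 3 were its highest arrays in each group, and the adjusted p was 0.051 with slide as a block, 0.1 without vehicle 1, 0.083 without dexamethasone 1 and 0.083 without dexamethasone 2. Smaller falls with little spread within groups were firmer. Gatm, the first enzyme of creatine synthesis, read 442, 371 and 410 against 75, 87.1 and 103 (-2.21 ± 0.15, adjusted p = 3.02e-05). Dsp, the desmosomal protein desmoplakin, read 2762, 2408 and 2477 against 602, 634 and 609 (-2.05 ± 0.15, adjusted p = 4.38e-05).

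**Figure D2:**
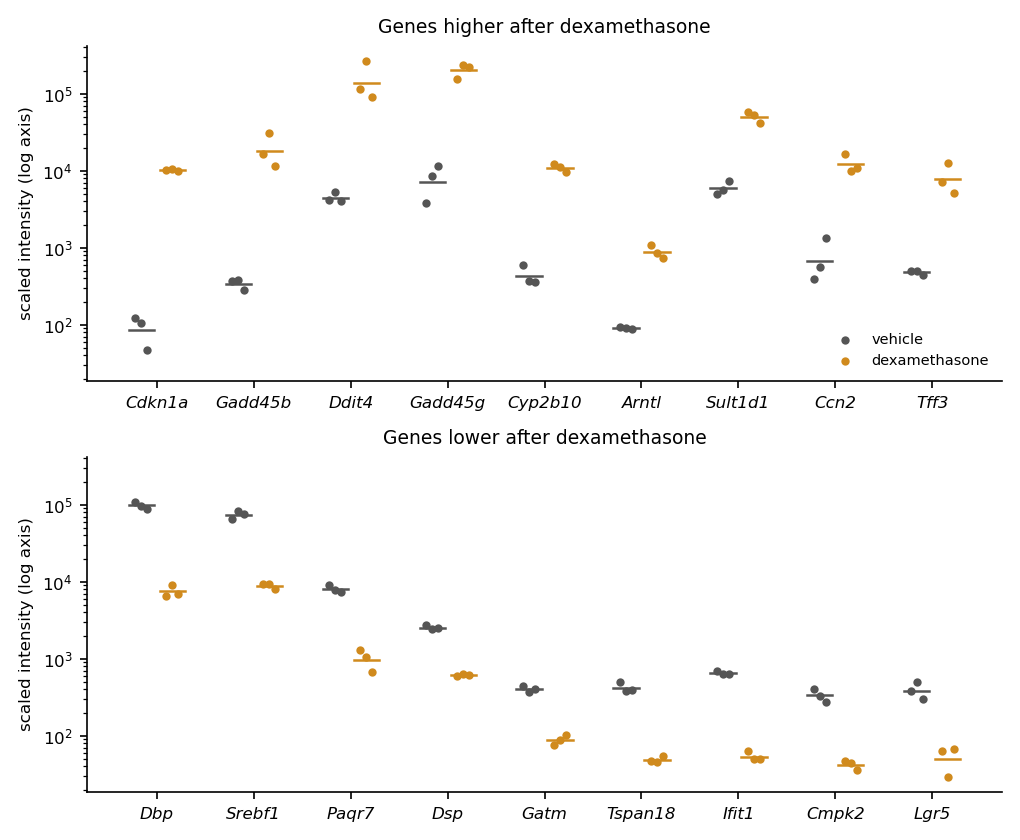
Scaled intensity (log axis) of 9 genes called higher (upper panel) and 9 called lower (lower panel) in males, 1 point for each of the 3 vehicle (grey) and 3 dexamethasone (orange) arrays, with a bar at the geometric mean. In every gene shown the points of the 2 groups stand apart, which for most of them was a condition of their choice.

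There were 145 genes above background on all 3 vehicle arrays and on no dexamethasone array, 99 of them with a usable symbol. The bounds were much smaller than for the genes switched on. Syt9, a synaptotagmin, read 141, 37.9 and 44.8 on vehicle (at least 5.68-fold lower, adjusted p = 0.00171). Cxcr5, the homing receptor of follicular B cells, read 74.7, 49.9 and 40.9 (at least 4.83-fold lower). Chek2, a DNA damage checkpoint kinase, read 56.5, 52.7 and 52.0 (at least 4.61-fold lower, adjusted p = 0.000916). The others among the 10 highest bounds were Tnfrsf13c (4.01), Mfsd7a (3.99), Fcrla (3.86), Ranbp3l (3.81), Ddias (3.74), Akap6 (3.64) and Tmem26 (3.59). All 10 changed sign under normexp background correction (0.11 to 0.48) and lost the call when its background was capped (adjusted p 0.076 to 0.32), so these dim falls depend on how background was handled.

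The gene lists below, 28 of pathways and 12 of cell type markers, were described by their counts against 10.5% higher and 12.1% lower over all genes, whose median change was 0.01. Over all genes the groups did not overlap for 22.1% higher and 21.5% lower. The list with the most calls in 1 direction was ribosome biogenesis, the factors that transcribe, cleave and fold ribosomal RNA. Of its 30 tested genes 19 were called higher and none lower, its median was 0.64 (0.51 to 0.70 under the other scalings and background corrections), and 25 had groups that did not overlap. Nop58, a core protein of box C/D small nucleolar RNPs (chr1:59962544-59962603, mm7), read 3556, 3718 and 3984 on vehicle and 8326, 11120 and 12880 on dexamethasone (1.5 ± 0.22). Nolc1, a nucleolar chaperone of these particles, rose by 1.41 ± 0.30 (adjusted p = 0.00778). Ddx21, a nucleolar helicase, read 1026, 1252 and 1148 against 2182, 2796 and 2803 (1.18 ± 0.17). Each treated array of Nop58 and Ddx21 was above every vehicle array.

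Nip7, which acts on the large subunit, read 3934, 4556 and 4778 against 8484, 9001 and 10130 (1.06 ± 0.12, adjusted p = 0.000358). Nob1, the nuclease that matures the small subunit RNA, read 505, 569 and 659 against 1151, 1303 and 1218 (1.09 ± 0.12, adjusted p = 0.000393). The RNA polymerase I subunits Polr1e (0.91 ± 0.19, adjusted p = 0.0077) and Polr1a (0.67 ± 0.14, adjusted p = 0.00757) rose less. Abundant nucleolar proteins did not pass: Npm1 changed by 0.14 (adjusted p = 0.57), Fbl by 0.17 (0.42) and Ncl by 0.39 (0.052). Of the 19 calls, 10 held without each of the 6 male arrays, and 10 remained without male vehicle 1 alone. The summed scaled intensity of the list was 121400 to 141400 on vehicle and 177000 to 199300 on dexamethasone arrays.

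**Figure D3:**
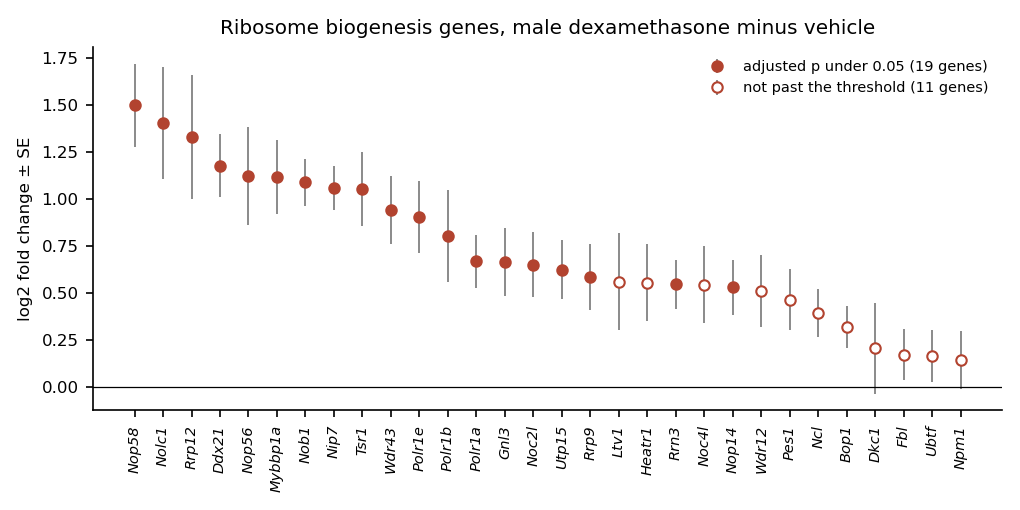
Log2 change ± standard error in males (dexamethasone minus vehicle) of the 30 tested ribosome biogenesis genes, ordered by size, filled where called and open where not. Nop58 at 1.5 and Nolc1 at 1.41 head the list, and none of the 30 was called lower.

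Among 40 cytosolic ribosomal proteins 3 were called higher and none lower, and none held without each male array. The groups of 26 did not overlap, all higher, where 22.1% of all genes were apart higher and 21.5% lower. The summed scaled intensity of the list was 3754000 to 3818000 on vehicle and 4102000 to 4953000 on dexamethasone. The median of 0.22 became -0.0023 under quantile normalization. Translation factors had 8 called higher and 2 lower of 27 (5 and 1 held without each male array, median 0.27). Eif4ebp3, a repressor of cap-dependent translation, read 2245, 8651 and 10860 against 91190, 99020 and 80130 (3.92 ± 0.59, adjusted p = 0.00156). Vehicle 1 was the lowest array by a wide margin. Eif4a1, the cap-complex helicase, rose by 0.84 ± 0.14 (adjusted p = 0.00265), Eif4ebp1 by 0.68 ± 0.16 (adjusted p = 0.0116), and Eef2k, which inactivates an elongation factor, fell by 1.31. The aminoacyl-tRNA synthetases, which charge tRNAs, had 3 of 20 called higher and none lower, of which 1 held.

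Among 31 proteasome genes 3 were called higher and none lower, and among 31 mitochondrial ribosomal proteins 2 and none, with no call that held without each male array in either list. Their medians of 0.17 and 0.01 became -0.04 and -0.16 under normexp. Of 40 respiratory chain genes 3 were called higher and none lower, and the call that held was Ndufb3, a complex I subunit. In this list the groups stood apart higher in 23 genes and lower in 1, against 22.1% and 21.5% of all genes. Its median of 0.21 became -0.03 under quantile normalization. Tricarboxylic acid cycle genes had 6 higher and 2 lower of 24, of which 2 and none held, with Idh3a, a subunit of isocitrate dehydrogenase, higher by 1.06. Regulators of messenger RNA decay and processing had 9 higher and none lower of 43 (median 0.33), but 1 remained called without male vehicle 1. Srsf7, a splicing factor, held without each male array, and its 3 probes gave 0.09 to 0.78. Vesicle trafficking genes had 8 higher and 1 lower of 46 (3 and 1 held). Rab7, the late endosome GTPase, read 8226, 9032 and 8349 against 21590, 25660 and 18340 (1.34 ± 0.14).

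One-carbon, methionine and polyamine metabolism had 8 genes called higher and 1 lower of 29 (5 and none held, median 0.28, 0.10 to 0.34 under the other scalings and corrections). Smox, the spermine oxidase, read 382, 291 and 320 against 2758, 3568 and 1355 (2.85 ± 0.32). Mthfd2, a mitochondrial folate enzyme, read 133, 143 and 55.0 against 368, 571 and 390 (2.10 ± 0.36). Neither gene's groups overlapped. Nnmt, which methylates nicotinamide, read 45840, 87370 and 66940 against 147600, 209000 and 228200 (1.57 ± 0.33, adjusted p = 0.00771). Bhmt, which remethylates homocysteine, read 98690, 72310 and 92450 against 200700, 208400 and 180600 (1.17 ± 0.20, adjusted p = 0.00247). Odc1, the first enzyme of polyamine synthesis, read 23150, 26890 and 27050 against 50360, 39250 and 46680 (0.82 ± 0.16, adjusted p = 0.00528). Synthesis and oxidation of polyamines were thus both represented among the rises.

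Heme, NAD and retinoid metabolism was divided, 3 higher and 5 lower of 30 (2 and 1 held). Tdo2, which opens the ring of tryptophan and is a classic glucocorticoid-induced enzyme, read 22670, 29480 and 31150 against 90910, 67310 and 74690 (1.49 ± 0.27, adjusted p = 0.00356). Nampt, the salvage enzyme of NAD synthesis, read 3410, 4338 and 6497 against 10830, 10870 and 13400 (1.34 ± 0.23, adjusted p = 0.00301). The fall that held was the retinal reductase Dhrs3 (-0.84). Antioxidant and NRF2-linked genes had 2 higher and 6 lower of 29 (1 and 2 held). Nfe2l2, which encodes NRF2 itself, read 7638, 7319 and 8710 against 4338, 4018 and 3847 (-0.95 ± 0.14). Gclm, the modifier subunit of the first enzyme of glutathione synthesis, read 1157, 1108 and 1224 against 727, 504 and 684 (-0.88 ± 0.17, adjusted p = 0.00509). The list of glucuronosyltransferases, aldehyde and alcohol dehydrogenases had 3 higher and 4 lower of 28 (2 and 2 held), with the alcohol dehydrogenases Adh7 (1.31) and Adh4 (-1.02) moving oppositely.

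In sphingolipid and phospholipid metabolism 5 of 32 genes were called higher and 6 lower (3 and 5 held, median -0.18). The kinases rose: Sphk1, which makes sphingosine 1-phosphate, read 138, 142 and 145 against 354, 522 and 397 (1.56), and Chka, the first enzyme of phosphatidylcholine synthesis, read 596, 611 and 592 against 1250, 1428 and 1412 (1.18 ± 0.18, adjusted p = 0.00172). Besides Smpd3, the falls included Sgms2, a sphingomyelin synthase, at 1278, 919 and 940 against 310, 148 and 153 (-2.43 ± 0.32). Sgpl1, the lyase that destroys sphingosine 1-phosphate, read 5443, 4679 and 4775 against 2999, 2763 and 2612 (-0.83 ± 0.13, adjusted p = 0.00183). The gene that makes this lipid was therefore higher and the gene that breaks it down lower, with no overlap in either. Lpcat3, a phospholipid acyltransferase, fell by 1.43 (adjusted p = 0.00339).

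Of 24 thyroid hormone pathway genes 4 were called higher and 2 lower (3 and 1 held). Apart from Tg, the receptor gene Thrb read 1433, 1737 and 1540 against 2559, 3242 and 2590 (0.83 ± 0.15, adjusted p = 0.00415). The coactivator Med1 rose by 0.67 ± 0.10 (adjusted p = 0.00169). Dio1, the hepatic deiodinase that makes active hormone, read 20820, 24760 and 20160 against 12870, 12010 and 8357 (-1.0 ± 0.19). Dio2, the other activating deiodinase, was called higher at 5.65, 15.5 and 7.38 against 131, 231 and 38.6 (3.61 ± 1.12, adjusted p = 0.0413), but the call was lost without any 1 male array other than dexamethasone 3 (adjusted p 0.0604 to 0.134). Only 1 of the 3 vehicle arrays of Dio2 was above background. Rxrg, a partner receptor, read 1675, 1706 and 1928 against 579, 397 and 663 (-1.73 ± 0.41, adjusted p = 0.0135), with an adjusted p of 0.0517 without dexamethasone 2. The 2 activating deiodinases were thus called in opposite directions, as were the receptor genes Thrb and Rxrg.

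Among 33 Wnt pathway genes 3 were called higher and 8 lower, of which 2 and 7 held (median -0.35, but 0.10 under normexp). Lgr5 (chr10:114958025-114958084, mm7), the receptor of R-spondins, read 385, 496 and 304 against 63.1, 29.1 and 67.9 (-2.96 ± 0.37, adjusted p = 0.00061). Rnf43, the ubiquitin ligase that removes Wnt receptors, read 5384, 7099 and 8243 against 2300, 1624 and 2238 (-1.75). All treated values of both lay below all vehicle values. The ligand Wnt4 (-1.33 ± 0.22, adjusted p = 0.00245), the receptor Fzd4 (-1.16 ± 0.18, adjusted p = 0.00187), the transcription factor Tcf7 (-1.13 ± 0.19, adjusted p = 0.00235) and the feedback inhibitors Nkd1 (-1.29 ± 0.28, adjusted p = 0.00817) and Notum (-0.78 ± 0.13, adjusted p = 0.00206) also fell. Against these, the secreted inhibitor Dkk4 was at least 2.82-fold higher and the coreceptor Lrp6 rose by 1.11.

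TGF-beta and BMP genes had 4 called higher and 8 lower of 40 (1 and 5 held). Tgfb1, the ligand, read 235, 218 and 154 against 74.4, 74.9 and 84.0 (-1.36). Smad3, its signal transducer, read 510, 555 and 356 against 206, 193 and 209 (-1.20 ± 0.24, adjusted p = 0.00546). Inhbc, an activin subunit made in liver, read 3468, 4929 and 3057 against 1672, 1780 and 1863 (-1.08 ± 0.18, adjusted p = 0.00272). Skil, a repressor of SMAD signalling, rose by 1.51. In the Notch and Hippo list, 6 of 32 were called higher and 3 lower (3 and 1 held). Tead1, the DNA-binding partner of YAP, read 2571, 2809 and 1599 against 6039, 11140 and 12830 (2.08), and Ccn2, a known YAP target, was among the largest rises.

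Growth factor ligands and receptor tyrosine kinases had 5 higher and 13 lower of 41 (2 and 7 held, median -0.44, -0.09 under normexp). Fgfr2 read 978, 891 and 799 against 263, 205 and 351 (-1.73 ± 0.23). Met, the hepatocyte growth factor receptor, read 6424, 5908 and 6241 against 2400, 1695 and 3536 (-1.35 ± 0.23, adjusted p = 0.0028). Fgfr4, the receptor through which FGF15 limits bile acid synthesis, read 7356, 8082 and 7196 against 4287, 4827 and 3503 (-0.85 ± 0.19, adjusted p = 0.00925). Ephb4 fell by 0.99 ± 0.16 (adjusted p = 0.00218). The rises that held were the ligand Fgf1 (1.32) and the receptor Pdgfra (0.80 ± 0.14, adjusted p = 0.00261).

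Cell junction and adhesion genes leaned the same way, 3 higher and 14 lower of 35 (2 and 8 held, median -0.48, -0.03 under normexp). Cldn2, a claudin that forms cation pores, read 3232, 3177 and 2284 against 295, 333 and 1021 (-2.62 ± 0.49). Cd44, the hyaluronan receptor, read 822, 849 and 607 against 183, 166 and 190 (-2.07 ± 0.27, adjusted p = 0.000765). Tjp3, a tight junction scaffold, read 1836, 1651 and 2013 against 732, 611 and 421 (-1.67 ± 0.29, adjusted p = 0.00319). Dexamethasone 3 stood apart from the other treated arrays for Cldn2 but still read below every vehicle array. The integrin Itga6 (-1.37 ± 0.20, adjusted p = 0.00146) and the gap junction gene Gjb1 (-0.89 ± 0.18, adjusted p = 0.00606) fell too, whereas Itgb3 read 786, 648 and 613 against 3547, 4769 and 3717 (2.55) and Cldn14 rose by 2.35. The 2 probes of Itgb3 gave 0.41 and 2.55. Actin and cytoskeleton genes had 6 higher and 12 lower of 45 (1 and 7 held). Actg1, a cytoplasmic actin, rose by 1.68, and Krt18, a hepatocyte keratin, read 120700, 94330 and 78850 against 36090, 41250 and 56250 (-1.14 ± 0.24, adjusted p = 0.0074).

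Ion channels and pumps were split, 7 higher and 6 lower of 41 (3 and 5 held). Atp1b1, a sodium pump subunit, read 5681, 3970 and 4192 against 21130, 35410 and 13510 (2.25), and the potassium channel Kcnk1 rose by 2.35. Kcnj10, an inward rectifier, read 137, 203 and 114 against 16.4, 10.5 and 13.8 (-3.46 ± 0.52), with 2 of its 3 dexamethasone arrays above background. The hepatocyte aquaporins Aqp9 and Aqp8 fell. Aqp9, a glycerol channel, read 10460, 10550 and 10250 against 4432, 4082 and 5187 (-1.20 ± 0.13, adjusted p = 0.000307). Aqp8 read 43890, 20380 and 27850 against 13910, 10660 and 6899 (-1.54 ± 0.30, adjusted p = 0.00523). Vehicle arrays were nearly equal for Aqp9 and uneven for Aqp8.

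G protein-coupled receptors and their ligands had 5 higher and 5 lower of 36 (3 and 2 held). Avpr1a (chr10:121946316-121946375, mm7), the hepatic vasopressin receptor, read 1299, 1316 and 1324 against 5348, 6019 and 5298 (2.08 ± 0.21). Spread within each of its groups was small. The lysophosphatidic acid receptor Lpar1 rose by 1.85 and the peptide endothelin Edn1 by 1.75 ± 0.32 (adjusted p = 0.00386). Gcgr, the glucagon receptor, fell by 0.53, and P2ry13, a purinergic receptor, by 1.38.

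Toll-like and pattern recognition receptors had 2 higher and 9 lower of 32 (1 and 6 held, median -0.24, but 0.10 under normexp). Tlr1, a receptor for bacterial lipopeptides, read 129, 169 and 97.6 against 21.5, 23.6 and 16.7 (-2.65). Clec7a, the beta-glucan receptor, fell by 2.10 and Msr1, a scavenger receptor, read 507, 428 and 386 against 149, 127 and 140 (-1.66 ± 0.27, adjusted p = 0.00206). Nod1, a cytosolic sensor of peptidoglycan, read 6527, 6345 and 6016 against 3512, 3816 and 4214 (-0.71 ± 0.15, adjusted p = 0.00677). The adaptor Ticam1 moved the other way (1.03). Over the same arrays the summed level of 13 Kupffer cell and macrophage markers was 63060 to 98590 on vehicle and 46120 to 60570 on dexamethasone, and its part in these falls was not tested.

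Chromatin, ubiquitin and autophagy lists completed the survey. Core histones and chromatin regulators had 6 higher and 2 lower of 45 (1 and 2 held), with the histone deacetylases Hdac11 (-1.31) and Hdac5 (-1.07) lower and the demethylase Kdm2b higher (0.60 ± 0.14, adjusted p = 0.0118). Ubiquitin ligases and deubiquitinases had 4 higher and 5 lower of 25 (1 and 3 held), and Fbxo21 fell by 1.32. Autophagy and lysosome genes had 4 higher and none lower of 29 (2 held, median -0.02). Wipi1, which binds the forming autophagosome, read 1375, 1478 and 1711 against 6208, 7743 and 4397 (1.98 ± 0.23), and Atg14, a subunit of the initiating lipid kinase complex, rose by 1.05.

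**Figure D4:**
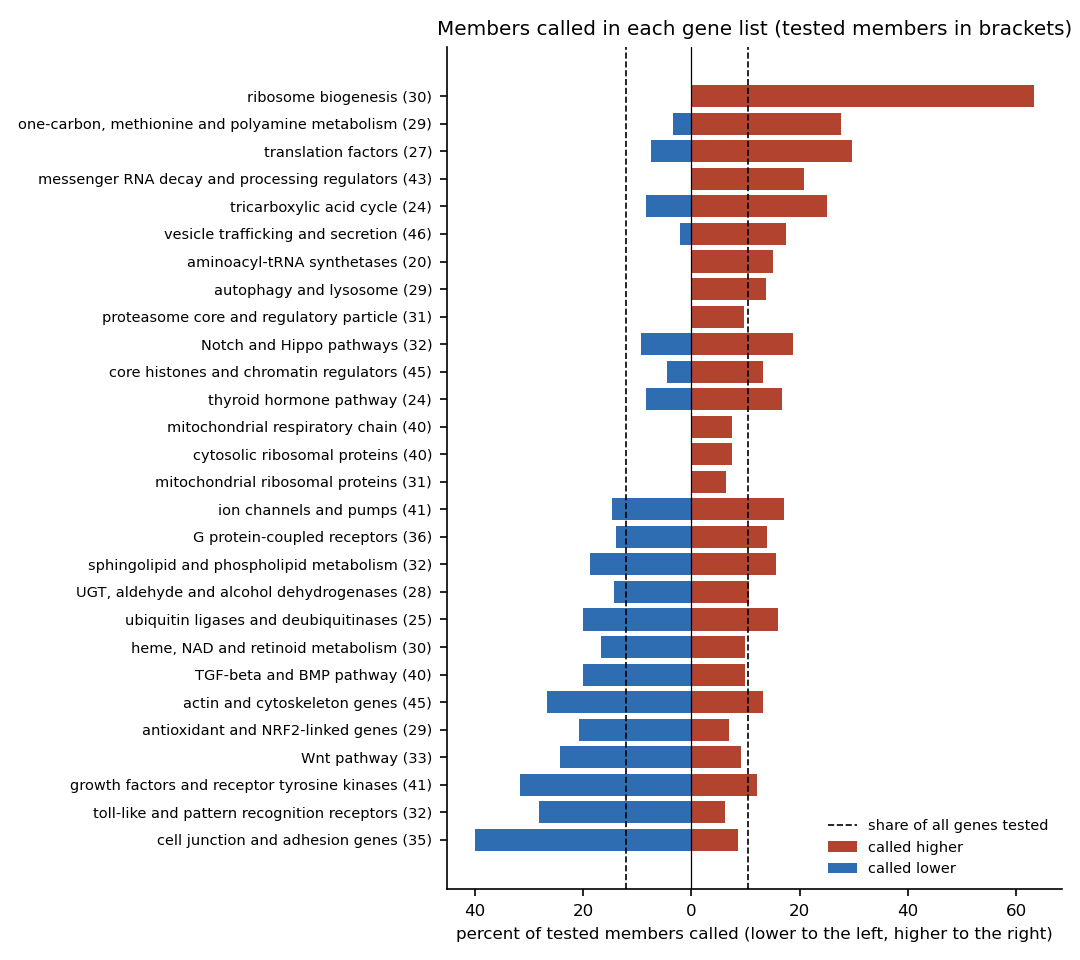
Percent of tested genes called higher (to the right) and called lower (to the left) after dexamethasone in males for each of the 28 pathway lists, with the shares over all genes, 10.5% and 12.1%, as dashed lines and the number of tested genes in brackets. Ribosome biogenesis, with 19 of 30 called higher, and cell junction and adhesion genes, with 14 of 35 called lower, lie at opposite ends of the range.

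Grouping all genes by the letters of their symbols, with families of at least 20 tested genes, gave a view that no pathway list fixes. The highest shares called higher were in Dnajc (10 of 27, 37.0%), the J-domain cochaperones, Ddx (11 of 34, 32.4%), the DEAD-box RNA helicases, Sec (8 of 26, 30.8%) and Dusp (5 of 20, 25.0%), the dual-specificity phosphatases that switch off MAP kinases. The Dusp family was split, with 3 called lower, among them Dusp6 (-1.69), and a median of -0.01. Dusp14 read 44.8, 56.5 and 61.1 against 495, 444 and 260 (2.85). With a minimum of 10 genes the highest share was in Trmt, the tRNA methyltransferases (9 of 17, 52.9%). Among families of at least 20 genes, the highest shares called lower were in Nr (7 of 20, 35.0%), the nuclear receptors, Cd (25 of 82, 30.5%), surface antigens, Clec (7 of 23, 30.4%), C-type lectins, and Aldh (6 of 20, 30.0%), aldehyde dehydrogenases. In the Nr family Nr0b2, the bile acid induced repressor SHP, fell by 1.99, and Nr1i3, the xenobiotic receptor CAR, by 1.30. In the Cd family Cd274, the checkpoint ligand PD-L1, fell by 2.74. The family also holds Cd79b, Cd22, Cd3g and Cd8a, which were called lower and are among the B cell and T and NK cell markers described below (5 of 9 and 7 of 16 lower), and the part of those cells in its count was not tested. Under normexp the medians of Cd (-0.42) and Clec (-0.35) turned to 0.18 and 0.22, and that of Nr (-0.06) to 0.01.

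With a minimum of 10 genes the highest share called lower was in Mcm, 7 of 10 (70%, median -0.77, -0.36 under normexp), most of them genes of the replicative helicase and its relatives. Mcm2 read 300.2, 265 and 240 against 81.6, 86.7 and 78.4 (-1.70 ± 0.19, adjusted p = 0.000376). Mcm5 read 406, 312 and 262 against 120, 170 and 101 (-1.34 ± 0.26, adjusted p = 0.00528). Neither overlapped between groups. Of the 7 falls, 4 held without each male array, those of Mcm2, Mcm3, Mcm5 and Mcm9. Mcm10, a replication initiation factor, was called higher (1.35 ± 0.34, adjusted p = 0.0176), with an adjusted p of 0.0665 without vehicle 1. The next highest share was in Dock, guanine nucleotide exchange factors, with 5 of 10 lower (50%). These Mcm and Dock genes were singled out after their values were seen.

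Called genes also lay side by side. With 15342 tested genes in the order of the RefSeq table, 23 runs of 4 or more neighbours were called in 1 direction and 94 runs of 3. The longest held 8 genes on chromosome 5, all lower by 0.83 to 1.80 on the log2 scale: Dtx1 and the antiviral oligoadenylate synthetases Oas2, Oas3, Oas1e, Oas1c, Oas1b, Oas1f and Oas1a. Among the 3 dexamethasone arrays, Oas1b was above background on 1 and Oas3 on 2, so their fitted falls rest partly on readings at background. The Oas1 genes are related to each other, so their probes may share signal, which was not tested. Dtx1, Oas3, Oas1e and Oas1b turned positive under normexp. On chromosome 17 H2-DMa, H2-DMb2, H2-DMb1, Psmb9, Tap1 and Psmb8, which make, transport or load peptides for MHC molecules, were 6 neighbours lower by 0.75 to 1.96. On chromosome 19 the run was Lipa, Ifit2, Ifit3, Ifit1, Slc16a12 and Pank1, lower by 0.98 to 3.60. Within it Ifit3 read 5405, 4456 and 3697 against 722, 896 and 561 (-2.65 ± 0.20, adjusted p = 7.1e-05).

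The longest runs of rises joined genes without a common family. On chromosome 16 Vasn, Dnaja3, Nmral1, Hmox2, Cdip1 and Ubald1 rose by 0.72 to 1.38, and on chromosome 1 Acmsd, Ccnt2, Rab3gap1, Zranb3 and R3hdm1 rose by 0.63 to 1.55. By chromosome, the share called higher was 15.3% on chromosome 18, where 9.75% were called lower, and 8.79% to 13.1% on the other autosomes. None of the 6 tested Y-linked genes was called. Of the genes in these runs, Acmsd, Zranb3 and Nmral1 among the rises and Oas2, Oas3 and Psmb8 among the falls lost the call without at least 1 of the 6 male arrays.

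**Figure D5:**
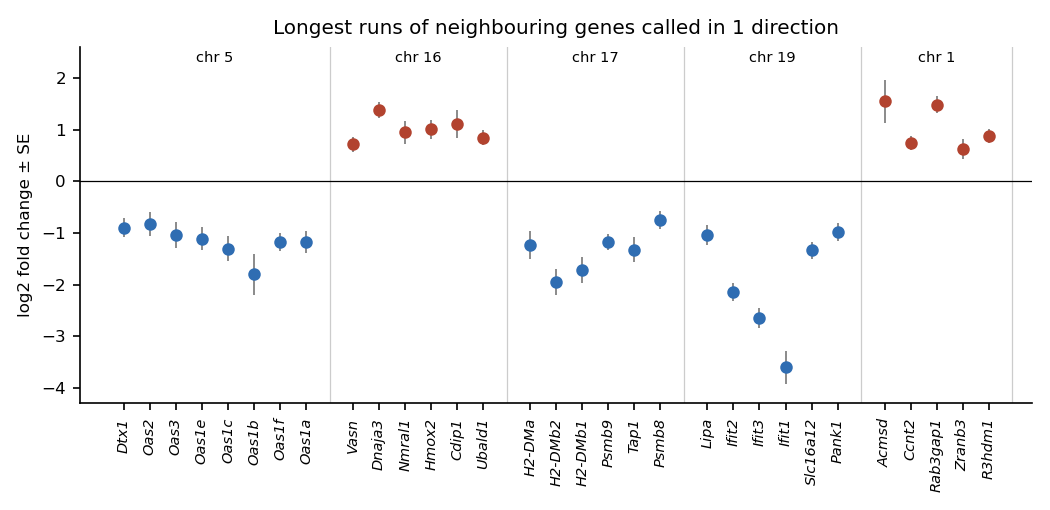
Log2 change ± standard error in males (dexamethasone minus vehicle) of the genes in the 5 longest runs of tested neighbours called in 1 direction, in RefSeq order. The Oas run on chromosome 5 has 8 genes, all below 0, and the runs on chromosomes 16 and 1 lie above 0. The falls of Oas1b and Oas3 rest partly on readings at background.

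Cell type markers gave the tissue context. Of 10 hepatocyte markers tested, 7 were called higher and none lower (3 held without each male array, median 0.47, 0.09 under quantile normalization, where 4 were called higher and 1 lower), and 4 remained without male vehicle 1. Their summed scaled intensity was 1919000 to 1995000 on vehicle and 2456000 to 2892000 on dexamethasone. B cell markers fell in 5 of 9 (4 held, median -1.62, but 0.15 under normexp), and their sum was 2458 to 4151 against 728 to 1691. Ms4a1, the B cell surface protein CD20, read 186, 110 and 136 against 12.3, 26.1 and 16.3 (-3.02 ± 0.43, adjusted p = 0.00113). In whole tissue, fewer cells of a type and less RNA per cell cannot be told apart. T and NK cell markers had none higher and 7 lower of 16 (2 held, median -0.75, but 0.34 under normexp), with sums of 2126 to 2995 and 1556 to 2301, which overlap.

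Kupffer cell and macrophage markers had 1 of 13 higher, the hemoglobin scavenger receptor Cd163 (1.51), and 1 lower, Adgre1, which did not hold. Neutrophil markers had 1 of 7 lower, Csf3r, and the median of -0.88 turned to 0.82 under normexp. Endothelial markers had 1 higher and 4 lower of 10 (none and 3 held), and stellate and fibroblast markers the same counts with none that held. Cholangiocyte (1 of 6 higher), erythroid (1 of 5 lower) and pancreatic acinar markers (1 of 4 lower) had no call that held. Adipocyte markers had 2 of 5 called higher, both of which held, with Adipoq, Lep and Retn not tested. None of 5 adrenal cortex markers was called. The steroidogenic Cyp11a1 and Cyp11b1 were not tested, and only 6 of the 7 listed genes had a probe under their name.

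The male change was set against the female one by testing the difference itself. A single gene of 19337 passed (0.00517%), Tg, and the count was 0 with probes above background on all 12 arrays, 32 without female dexamethasone 3 and 2277 with no filter on dim probes. Tg read 556, 780 and 578 on male and 25.6, 32.1 and 35.0 on female dexamethasone arrays, where it was above background on all 6, and it was above background on no vehicle array of either sex. The treated levels therefore stood apart between the sexes, while the size of each change has no measured starting level. The fitted difference of -3.90 ± 0.29 (adjusted p = 0.00112) is set against readings at background. With readings below background raised to each array's floor, an alternative chosen after seeing the data, it was -4.61 ± 0.24 (adjusted p = 1.46e-05). The call was lost under normexp (-2.19, adjusted p = 1) and with the mean of its probes (-3.64, adjusted p = 0.0975).

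At an unadjusted p under 0.05 there were 1033 genes, where 5% of all genes is 966.8. The next smallest p-values did not pass. Rflnb, not above background on any male dexamethasone array, was at least 1.97-fold lower in males and changed by -0.61 in females, a difference of 0.37 ± 0.31 when readings below background were raised to the floor (adjusted p = 0.998). Its male change was positive (0.69) under normexp. Moxd1, a monooxygenase-like gene, read 11.4, 50.7 and 34.1 against 767, 1205 and 538 in males (4.87 ± 0.53) and changed by 0.14 ± 0.53 in females (adjusted p of the difference 0.214). Cyp2b13 changed by 0.84 in females. Erdr1 changed by 1.48 ± 0.20 in males and -0.25 in females, and Hoxa2 by -0.64 and 0.50, with adjusted p values of 0.214 and 0.282 for the differences.

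Of the 4359 genes called in males, 2002 (45.9%) were also called in the same direction in females, where 2643 were called in all (13.7%), so they made up 75.7% of the female calls. A single gene, Hoxa2, a homeobox transcription factor, was called in opposite directions, at 31.6, 29.5 and 23.0 against 17.5, 17.0 and 19.2 in males, and its male change was positive (0.75) under normexp. The counts of the sexes were not compared by a test.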

How the data were processed

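Total liver RNA from 12 samples was labelled with Cy3 and hybridised to 1-colour arrays. The intensity values are the processed signals deposited by the authors from Agilent Feature Extraction 9.5, per the submitters' processing notes, and they are already background-corrected. Control and outlier spots were left out, spots of a probe averaged, and log2 intensity scaled by each array's 75th percentile. A probe was kept when every array of some group, of 4 groups of 3, showed it above background, and the brightest probe stood for a gene. RefSeq accessions and symbols named 32737 of 41174 probes. The test was limma 3.58.1 in R 4.3.3 with 4 group means over 12 arrays. On simulated data with 100 genes changed by 2-fold and 100 by 4-fold, it recovered 46% and 86% of them. Far fewer genes were changed there than the 22.5% called here, so these rates do not give the sensitivity of this comparison. Named genes included the 15 largest changes each way among called genes measured on all 6 male arrays whose groups did not overlap. The others were the 10 highest bounds, 8 smallest p-values, extremes of lists, families and runs, and 6 smallest p-values for the sex difference. List members, treatment targets, markers and the 4 promoter genes were named as well. Members, lists and rules were chosen with earlier results of these data known. Alternatives covered background, scaling, filters, probe choice, blocks, weights and left-out arrays. Samples were not paired by replicate number. Deviations of same-numbered male arrays from their group means correlated at -0.137, -0.203 and -0.163, which with 3 arrays a group cannot show whether samples were paired. Probe positions in exons or untranslated regions were not used here, and the number of arrays limits precision.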

Additional observations from a re-analysis of the deposited data

Results flagged for a closer look

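Tg was the single result that stood out, because its change under dexamethasone differed between the sexes by a test of the difference itself. The fitted female minus male difference was -3.90 on the log2 scale, but Tg was above background on no vehicle array of either sex, so this value has no measured starting level. What was measured is the treated level, a scaled intensity of 556 to 780 on the male and 25.6 to 35.0 on the female dexamethasone arrays. No male group could be examined for a single distant array, since that check needs more than 3 samples.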

How the results depend on the processing

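The total of 4359 calls in males was 905 under normexp background correction (424 higher, 481 lower) and 619 when a change beyond 1.5-fold was required (258 higher, 361 lower). Leaving out 1 array of the 12 gave 2336 to 5026 calls, with 1033 to 2317 higher and 1303 to 2709 lower; male vehicle 1 gave the lowest counts, and without male dexamethasone 2 there were 1297 higher. With a replicate block there were 3564 calls, with slide as a block 3185, and with the normexp background capped at its 99th percentile, an alternative chosen after seeing the data, 3574; with readings below background raised to the floor, also chosen afterwards, 4313. Normexp had fitted a background mean of -399 on male dexamethasone 1 and -5.92 to -4.22 on the other male arrays, and 749 of the 4359 calls took the other sign. Named genes that turned positive there were Syt9 (0.11), Cxcr5 (0.36), Chek2 (0.40), Tnfrsf13c (0.38), Mfsd7a (0.48), Fcrla (0.42), Ranbp3l (0.37), Ddias (0.46), Akap6 (0.38), Tmem26 (0.46), Rflnb (0.69), Pdp1 (0.27), Nrg1 (0.82), Kdelr3 (0.59), Clec5a (0.51), Aldh18a1 (0.50), Dtx1 (0.025), Oas3 (0.62), Oas1e (0.36), Oas1b (0.76), Hoxa2 (0.75), Cd22 (0.15), Cd3g (0.32), Cd8a (0.80), Lck (0.10), Gzma (0.48), Gzmb (0.36), Prf1 (0.76), Ccr7 (0.56) and Cela1 (0.12). With the capped background Nrg1 (0.058), Hoxa2 (0.057), Cd8a (0.025) and Prf1 (0.0011) were positive. The difference between the sexes called 1 gene as reported, 0 under normexp, 2 with the capped background, 2277 with no filter on dim probes, 0 with probes above background on all 12 arrays, 0 when probes of a gene were averaged, 3 with array weights and 1 to 32 with 1 array left out (3 without male vehicle 1, 5 without male dexamethasone 3, 32 without female dexamethasone 3). Among genes called higher that had a promoter window, the share with the motif in any window was 6.23% with the core and 0.934% with the 13-letter pattern. The median of all genes shifted to 0.26 under normexp, 0.11 with the capped background and 0.10 without the filter. The causes of these differences were not tested.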
